A study of Mus musculus with 28 samples.

Results

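Plasma lipoproteins carry triglyceride and cholesterol between organs, and the genes described here build these particles, break them down or restrain the enzymes that do so. They are 9 genes of the 54446 listed in each library: hepatic lipase (Lipc), lipoprotein lipase (Lpl), the lipase inhibitor Angptl8, the apolipoproteins Apoa1, Apoa4, Apoa5, Apob and Apoc3, and the microsomal triglyceride transfer protein (Mttp). They were chosen as apolipoprotein, lipase and lipase inhibitor genes around the lower Lipc of NMN-gavaged liver, so their liver values under NMN are given as a description, without p-values. RNA was sequenced from the liver and the kidney of male C57BL/6 mice aged 8 weeks after 7 days of gavage with nicotinamide mononucleotide (NMN), a precursor of NAD+, or with water. The paper's methods give the strain as C57BL6J. In the 1340 mg/kg/d schedule (1 gavage per day) there were 4 NMN and 4 water mice per organ, and in the 2680 mg/kg/d schedule (2 gavages per day) 3 NMN and 3 water mice per organ. Each schedule had its own water mice. The dose and the number of gavages per day changed together between the schedules, and their effects cannot be told apart.

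Triglyceride leaves the liver in very low density lipoprotein (VLDL), in which Mttp loads lipid onto the structural protein apolipoprotein B. Lipoprotein lipase, made mainly in muscle, fat and heart and active on the capillary wall, hydrolyses the triglyceride of circulating particles. Hepatic lipase is made by hepatocytes and acts on the phospholipid and triglyceride of particle remnants and of high density lipoprotein (HDL). Apolipoproteins C-III and A-V and the protein ANGPTL8 regulate lipoprotein lipase, the first and the last as inhibitors and apolipoprotein A-V as an activator. Apolipoprotein A-I is the main protein of HDL, and apolipoprotein A-IV is made by the intestine and, in the mouse, the liver.

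The positions are those of the GENCODE M21 annotation of build GRCm38. Lipc (ENSMUSG00000032207.10) lies on the minus strand at chr9:70798128-70952226, and Lpl (ENSMUSG00000015568.16) on the plus strand at chr8:68880491-68907448. Apoa1, Apoc3, Apoa4 and Apoa5 lie beside each other on chromosome 9 within 43340 bp, at chr9:46228580-46230466, chr9:46232933-46235636, chr9:46240696-46243459 and chr9:46268633-46271919, with Apoc3 on the minus strand and the others on the plus strand. Angptl8 is at chr9:21835510-21837347, Apob at chr12:7977648-8016835 and Mttp at chr3:138089854-138144968. The counts are of all exons of a gene without regard to strand. Other annotated genes overlap Apoa4 (Gm10680 and Gm47528) and Apoa5 (Gm47544) on the other strand, and Gm43691 and Trmt10a overlap Mttp there. A read lying in exons of both genes of a pair was ambiguous and was left out of the counts.

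Promoter sequences of 300 bases (250 before the start and 50 from it on) were held by RefSeq on GRCm38.p6 for 7 of the 9 genes, with 9 promoters in all. Those of Lipc and Apoa4 are shown because these were the genes whose NMN and water livers did not overlap in a schedule. Lipc has 2 annotated starts, which gene counts do not tell apart. In the following 3 runs, written 5′ to 3′ on the strand of the gene, capitals mark matches on either strand to AGGTCA (the core recognised by nuclear receptors), the direct repeat of AGGTCA with 1 base between the copies, the TATA box as TATAAA, the E-box as CACGTG, or the CAAT box as CCAAT.
Lipc, first start, chr9:70952172-70952471, minus strand: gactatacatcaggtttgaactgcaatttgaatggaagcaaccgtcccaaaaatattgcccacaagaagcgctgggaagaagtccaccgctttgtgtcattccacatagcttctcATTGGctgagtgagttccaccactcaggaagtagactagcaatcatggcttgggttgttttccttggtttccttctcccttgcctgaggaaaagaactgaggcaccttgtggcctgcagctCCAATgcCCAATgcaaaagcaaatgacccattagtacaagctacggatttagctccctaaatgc
Lipc, second start, chr9:70934759-70935058, minus strand: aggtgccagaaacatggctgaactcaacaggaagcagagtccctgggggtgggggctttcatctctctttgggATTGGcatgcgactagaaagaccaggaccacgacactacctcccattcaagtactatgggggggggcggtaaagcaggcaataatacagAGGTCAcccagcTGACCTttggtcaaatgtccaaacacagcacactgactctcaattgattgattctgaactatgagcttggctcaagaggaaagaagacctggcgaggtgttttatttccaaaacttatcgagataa
Apoa4, chr9:46240594-46240893, plus strand: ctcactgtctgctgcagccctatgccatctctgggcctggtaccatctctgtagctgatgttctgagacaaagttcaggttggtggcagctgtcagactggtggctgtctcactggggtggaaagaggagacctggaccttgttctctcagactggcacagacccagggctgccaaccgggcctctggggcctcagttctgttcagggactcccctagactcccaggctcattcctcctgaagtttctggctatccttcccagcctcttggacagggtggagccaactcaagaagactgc
The first Lipc promoter held 3 matches to CCAAT, of which 2 began 14 and 7 bases before the start. The second held 1 match to CCAAT and 2 to AGGTCA, which began 88 and 76 bases before its start on opposite strands. The Apoa4 window held none of the 5 motifs. Over all 32851 promoters of this length, 37.4% held CCAAT and 16.3% AGGTCA, so such matches are common. CACGTG, in 7.15% of all promoters, occurred among the 7 genes searched only in the promoters of Apoa5, beside a TATAAA (13.6% of all promoters), which was also found in the Apob promoter. The direct repeat was in 0.0396% of all promoters and in none of these.

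The 14 liver libraries held 12688324 to 20635269 reads assigned to genes, and the 14 kidney libraries 13174264 to 33872983. The replicates carry only a number in the labels, so p-values measure the spread between these samples. The 9 genes together took 1.64% to 2.33% of the counts in liver and 0.09% to 0.17% in kidney. Expression is given as CPM, the count scaled to the size of its library by the TMM method within a comparison. The tissues matched their labels: albumin (Alb) was 62172 to 127913 CPM in every liver, and the tubule genes Kap and Umod were 12761 to 26640 CPM and 1278 to 2833 CPM in every kidney. The schedules also differed beyond dose. Mitochondrial genes took 3.89% to 5.77% of counts in the 1340 mg/kg/d livers and 5.74% to 9.24% in the 2680 mg/kg/d livers, and 8.92% to 10.6% against 19.8% to 21.6% in the kidneys.

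A few libraries stood apart. The liver of NMN replicate 1 at 2680 mg/kg/d held kidney transcripts (Kap 21.3 CPM, Umod 2.66 CPM), while both other NMN livers of that schedule had Kap at 0.72 and 0.79 CPM and Umod at 0. Of its water livers, replicate 2 had Kap at 6.12 and Umod at 0.51 CPM, and replicates 1 and 3 had Kap at 0.52 and 1.13 CPM. All 8 livers of the 1340 mg/kg/d schedule held Kap at 23.8 to 36.7 CPM. In the liver of NMN replicate 4 at 1340 mg/kg/d, 12.8% of all alignments fell on no annotated feature, against 4.91% to 7.44% in the other 7 livers of that schedule. The clock output gene Dbp was at 0.63 CPM in water replicate 1 and 94.2 to 139 CPM in the other 3 water livers at 1340 mg/kg/d, where the NMN livers had 6.09, 4.11, 18.9 and 126 CPM. For the 2680 mg/kg/d schedule Dbp was 0.41, 135 and 64.9 CPM in the water livers and 9.42, 59.6 and 25.1 CPM in the NMN livers. For the genes that moved most, the value without one of these libraries is given beside the result.

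Lipc was lower in the NMN livers at 2680 mg/kg/d. The water livers of that schedule had 219, 272 and 244 CPM, and the NMN livers 71.5, 86.2 and 81.8 CPM. All 3 NMN livers lay far below the lowest water liver, and the NMN group was also tight, with a mean of 79.8 ± 7.51 CPM (SD, n = 3) against 245 ± 26.7 CPM (SD, n = 3) in water. The log2 fold change was -1.62 (SE 0.15), a 3.07-fold lower level, and ranked 181 from the lowest of 12477 genes tested. It ran from -1.69 to -1.54 as each library was left out, and was -1.55 without NMN replicate 1 and -1.54 without water replicate 2, the livers with the most kidney transcripts of their groups, and -1.69 without water replicate 1, whose Dbp was lowest. The quasi-likelihood test of edgeR, at a threshold of 0.05 on the adjusted p, called 7.08% of all tested genes in this comparison, with 4.03% of all tested genes lower. It called 1 of the 9 (Lipc), a count on the values that chose the genes, from which nothing is read. In bulk liver, fewer cells of a type and less RNA per cell cannot be told apart.

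At 1340 mg/kg/d Lipc differed little. The water livers had 176, 204, 160 and 153 CPM and the NMN livers 143, 158, 157 and 119 CPM. The groups overlapped, with 2 NMN livers above the lowest water liver. The log2 fold change was -0.26 (SE 0.14), -0.18 without NMN replicate 4, the lowest of the 8, and -0.26 without water replicate 1, whose Dbp was lowest. In edgeR 0 of the 9 genes passed in this comparison, in which 0.0161% of all tested genes did, and DESeq2 called 1 (Apoa4). Whether the change of Lipc differed between the schedules was not tested, since the genes were chosen on this response. The Lipc level of the water livers themselves was 173 ± 22.6 CPM (SD, n = 4) at 1340 mg/kg/d and 245 ± 26.7 CPM (SD, n = 3) at 2680 mg/kg/d.

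**Figure D1:**
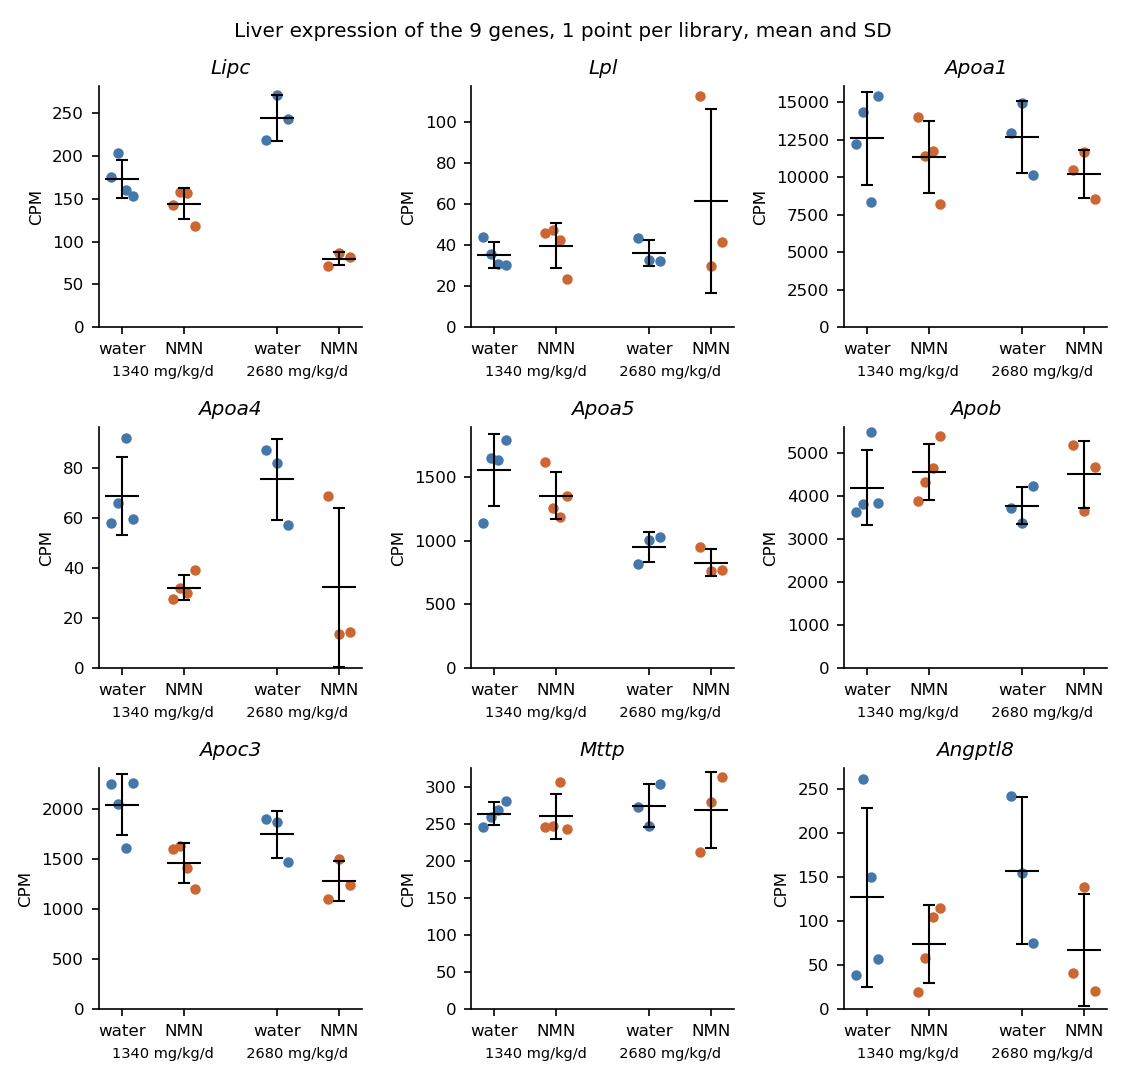
CPM of the 9 genes in each liver library (points; blue water, orange NMN), with the mean and SD of each group (black), for the 1340 mg/kg/d (4 against 4) and 2680 mg/kg/d (3 against 3) schedules, each axis starting at 0. Lipc separates NMN from water at 2680 mg/kg/d and Apoa4 at 1340 mg/kg/d, while the other 7 genes overlap in both.

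Of the 9 hepatocyte markers 7 had a log2 fold change below 0 at 2680 mg/kg/d, between -0.97 and -0.25, and Hpx (0.10) and Tat (0.18) lay above it. The summed level of the markers, of which Alb made up most and none was at 0, was 167679, 160204 and 155243 CPM in the water livers and 117139, 126169 and 130618 CPM in the NMN livers. The groups did not overlap, and the NMN mean was 0.774 of the water mean, against 0.326 for Lipc. Of the 9 markers 2 fell in edgeR, the thyroid hormone carrier Ttr by 0.97 on the log2 scale (adjusted p = 0.00227) and the protease inhibitor Serpina1c by 0.58 (adjusted p = 0.0196). Alb itself had a log2 fold change of -0.36 (SE 0.11, adjusted p = 0.075). At 1340 mg/kg/d the summed level was 114611 CPM in water and 117636 CPM in NMN livers and 0 of the 9 markers passed. The marker of another tissue that passed was Cela1, an elastase of the exocrine pancreas, which fell by 2.17 on the log2 scale (SE 0.23, adjusted p = 0.000731, edgeR), from 22.3, 24.0 and 19.5 CPM in the water livers to 4.09, 6.36 and 4.10 CPM in the NMN livers. It was nearly the whole sum of the 6 pancreas markers (19.5 to 24.0 and 4.09 to 6.41 CPM), of which Cpa1, Pnlip and Prss2 were at 0 in each of these livers. Cela1 had -1.31 (adjusted p = 0.251, edgeR) at 1340 mg/kg/d. Every kidney held more Cela1 than these livers, at 32.8 to 88.5 CPM, so it does not mark the pancreas alone here. The share of alignments on no feature was 3.62%, 3.27% and 3.47% in the water livers and 5.06%, 3.90% and 4.21% in the NMN livers at 2680 mg/kg/d, without overlap. The mitochondrial share was 6.91%, 5.74% and 7.37% in the water and 9.24%, 7.16% and 7.04% in the NMN livers, with overlap. The part of these markers, of the clock genes or of these shares in the Lipc result was not tested.

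The genes whose levels ran most like Lipc over the 14 livers, centred on each schedule's mean and among 11507 genes of at least 1 CPM, were Macrod1 (Pearson r = 0.962), Afm (0.960), Gstm6 (0.958), Bphl (0.954) and Cyp2d22 (0.954). They encode a mitochondrial ADP-ribosyl hydrolase, the vitamin E carrier afamin, a glutathione S-transferase, a serine hydrolase and a cytochrome P450. All points share organ, libraries and the contrast of NMN with water, so these values describe the pattern and nothing more. Their log2 fold changes were -3.42, -1.02, -1.20, -1.07 and -0.85 at 2680 mg/kg/d, and at 1340 mg/kg/d between -0.25 and 0.01. Centred on each group's mean instead, so that the treatment no longer enters, r was 0.393 for Macrod1 and 0.659 to 0.785 for the other 4. Gm42109 overlaps Afm on the other strand.

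Lpl, the other lipase, stood at a low level in liver. Its water livers had 44.1, 35.6, 30.8 and 30.5 CPM and its NMN livers 46.0, 47.2, 42.7 and 23.5 CPM at 1340 mg/kg/d. The groups overlapped, with a log2 fold change of 0.18 (SE 0.21), and 0.36 without NMN replicate 4. In the 2680 mg/kg/d schedule the water livers had 43.3, 32.9 and 32.2 CPM and the NMN livers 113, 29.8 and 41.8 CPM, so that the higher NMN mean came from replicate 1 alone. The log2 fold change of 0.77 (SE 0.51) was -0.02 without that liver. This library had the most kidney transcripts of its schedule. Kidney RNA at the share its kidney markers had would carry about 1.32 CPM of Lpl, and its part in the result was not tested.

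Among the 9 genes, the regulators of lipoprotein lipase Apoc3, Apoa5 and Angptl8 had lower NMN means in both schedules, with groups that overlapped. Apoc3, an inhibitor of lipoprotein lipase, was 2247, 2045, 1602 and 2252 CPM in water and 1598, 1630, 1411 and 1197 CPM in NMN livers at 1340 mg/kg/d. The values were 1898, 1862 and 1468 CPM in water and 1101, 1493 and 1238 CPM in NMN livers at 2680 mg/kg/d. In each schedule 1 water liver reached into the NMN range, and the log2 fold changes were -0.48 (SE 0.15) and -0.45 (SE 0.16). Apoa5, the activator, had log2 fold changes of -0.20 (SE 0.16) and -0.20 (SE 0.15), with overlapping groups.

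Angptl8, an inhibitor that is induced by feeding and insulin in liver, varied widely between mice, with an SD of 44.2 to 102 CPM around group means of 67.0 to 157 CPM. It was 39.0, 261, 150 and 57.4 CPM in the water livers and 19.2, 57.8, 104 and 115 CPM in the NMN livers at 1340 mg/kg/d. The 2680 mg/kg/d values were 242, 155 and 75.1 CPM in water and 41.2, 139 and 20.4 CPM in NMN livers. The groups overlapped in both schedules, and the log2 fold changes of -0.78 (SE 0.78) and -1.23 (SE 0.85) carried large errors. As each library was left out the first ran from -1.08 to -0.15 and the second from -2.36 to -0.78.

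Apoa4 was the gene of the 9 with the lowest fold change at 1340 mg/kg/d. The water livers had 57.8, 66.1, 91.8 and 59.5 CPM, and the NMN livers 27.6, 32.1, 29.9 and 39.1 CPM. All 4 NMN livers lay below all 4 water livers, at a mean of 32.2 ± 4.96 against 68.8 ± 15.7 CPM (SD, n = 4 each). The log2 fold change was -1.10 (SE 0.17), a 2.14-fold lower level, and ran from -1.20 to -0.93 as each library was left out. Of the 9 genes 1 (Apoa4) had groups that did not overlap. Among all tested genes 3.53% had such groups, with 1.74% of all tested genes lower.

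The Apoa4 values of the 2680 mg/kg/d schedule were split within the NMN group. The water livers had 87.1, 82.0 and 57.0 CPM, and the NMN livers 68.8, 13.6 and 14.2 CPM. NMN replicates 2 and 3 were far below every water liver, and replicate 1, with the most kidney transcripts of the schedule, lay within the water range. The log2 fold change was -1.23 (SE 0.73), and -2.44 (SE 0.22) without replicate 1. The kidney level of Apoa4 was lower than that of water liver, with at most 10.01 CPM in any of the 14 kidneys. In this comparison 1 of the 9 genes (Lipc) had groups that did not overlap, as had 29.8% of all tested genes, with 16% of all tested genes lower.

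The particle-building genes Apoa1, Apob and Mttp overlapped between NMN and water livers in both schedules. Apoa1 was 8338 to 15414 CPM in water and 8206 to 14039 CPM in NMN livers at 1340 mg/kg/d, and 10139 to 14912 against 8526 to 11693 CPM at 2680 mg/kg/d. Its log2 fold changes were -0.15 (SE 0.20; -0.02 without NMN replicate 4) and -0.31 (SE 0.16). Apob had 0.12 (SE 0.16; 0.03 without NMN replicate 4) and 0.26 (SE 0.15), and Mttp -0.02 (SE 0.12) and -0.03 (SE 0.17). For Mttp, with means of 264 and 261 CPM at 1340 mg/kg/d and 275 and 268 CPM at 2680 mg/kg/d, the values of NMN and water livers nearly coincided. Over the 9 genes, 7 log2 fold changes were below 0 and 2 above it in both liver comparisons. Their median was -0.20 at 1340 and -0.31 at 2680 mg/kg/d, where that of all tested genes was 0.00 in both. The genes were chosen around the lower Lipc of these livers, so nothing is read from these counts and medians.

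**Figure D2:**
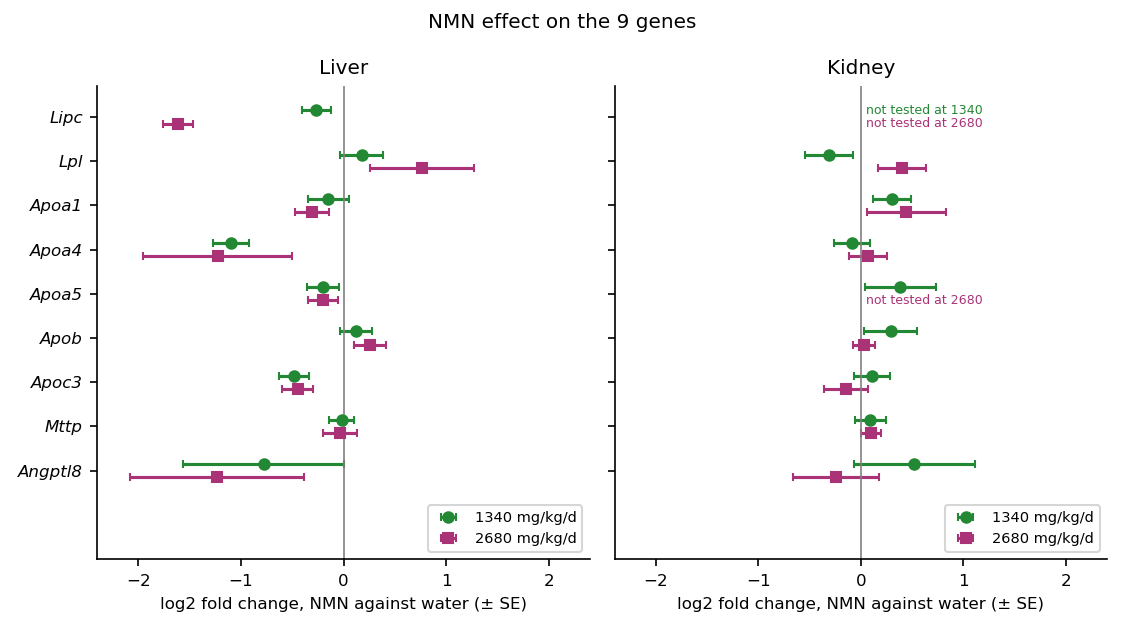
Log2 fold change of NMN against water (point) with its SE (bar) for the 9 genes in liver (left) and kidney (right), at 1340 mg/kg/d (green circles) and 2680 mg/kg/d (purple squares). In the 2680 mg/kg/d liver Lipc stands at -1.62 with a short bar and Apoa4 and Angptl8 at -1.23 with long bars, Apoc3 lies left of 0 in both livers (-0.48 and -0.45) as does Apoa4 (-1.10 at 1340 mg/kg/d), and in kidney the tested genes lie between -0.31 and 0.52.

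Among the other genes of lipoprotein metabolism, 92 in 6 lists by role, 87 were expressed enough for a test in liver. In the 2680 mg/kg/d comparison 7 of the 87 passed, 6 lower and 1 higher, a share near the 7.08% of all tested genes. Of the 9 tested apolipoproteins 2 fell, Apof by 0.65 on the log2 scale (SE 0.14, adjusted p = 0.0204, edgeR) and Apon by 0.67 (SE 0.16, adjusted p = 0.0306). Of the 10 lipases and lipase regulators 1 fell, the lipase maturation factor Lmf1, which folds both hepatic and lipoprotein lipase, by 0.79 (SE 0.18, adjusted p = 0.0276). Lmf1 had 49.7 ± 5.15 CPM in water and 28.7 ± 5.99 CPM in NMN livers (SD, n = 3 each). The lipase inhibitor Angptl4, at 2.56 (SE 0.76, adjusted p = 0.123), did not pass, although its NMN livers lay above its water livers, as in 13.8% of all tested genes. It passed in the fit blocked by replicate (adjusted p = 0.00566) and in DESeq2 (adjusted p = 0.0148).

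Of the 20 genes of VLDL assembly 3 passed in that comparison. P4hb, the smaller subunit of the microsomal transfer complex that pairs with Mttp, fell by 0.69 (SE 0.13, adjusted p = 0.0123), from 1679 ± 184 to 1039 ± 29.6 CPM (SD, n = 3 each), while Mttp itself had -0.03. The lipid hydrolase Aadac fell by 0.49 (adjusted p = 0.0497), and Mia3, which loads large cargo at the endoplasmic reticulum exit, rose by 0.80 (SE 0.18, adjusted p = 0.024). Of 25 transcriptional regulators 1 passed, Cebpa, which fell by 0.59 (adjusted p = 0.0489), and Gm45091 overlaps it on the other strand. The hepatocyte factor Hnf4a, at 0.57 (adjusted p = 0.0663), and the lipogenic factor Srebf1, at -0.96 (adjusted p = 0.0549), did not pass in edgeR, while both passed in DESeq2 (adjusted p = 0.027 and 0.00258) and Hnf4a also with the replicate block (adjusted p = 0.0408). None of 15 receptor and uptake genes passed (smallest p for Sdc1, the heparan sulfate proteoglycan that takes up remnants, -0.53, adjusted p = 0.118, and 0.0289 with the replicate block), nor any of 8 HDL genes (smallest p for Bmp1, -0.47, adjusted p = 0.0949).

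The folds of these 7 genes kept their direction as each library was left out (P4hb -0.75 to -0.60, Apof -0.76 to -0.57, Mia3 0.64 to 0.89), but the number of calls changed. In edgeR 0 of the 87 passed without water replicate 1 or without NMN replicate 3, 2 passed without water replicate 2 and 12 without NMN replicate 2. Over all genes, 211 to 1308 passed as each library was left out. The median log2 fold change of the 87 was -0.03, against 0.00 for all tested genes.

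At 1340 mg/kg/d 0 of the 87 passed in edgeR, where 0.0161% of all tested genes did. Of the 87, 16 had an unadjusted p under 0.05 and 2 passed in DESeq2. The share of all tested genes at these 2 cuts is not given here, so nothing is read from these counts. The smallest p in each list belonged to Apoc4 (log2 fold change -0.30), Gpihbp1, the capillary anchor of lipoprotein lipase (0.55), the lipid hydrolase Ces1d (0.62), the fatty acid transporter Cd36 (0.80), the phospholipid transfer protein Pltp (0.63) and Hnf4a (0.68), with adjusted p from 0.117 to 0.785. Hnf4a was higher in each of the 4 NMN livers (859 ± 102 CPM) than in each of the 4 water livers (537 ± 57.6 CPM), as were 1.78% of all tested genes. Gm44805 overlaps Apoc4 on the same strand, and Ctsa overlaps Pltp on the other.

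**Figure D3:**
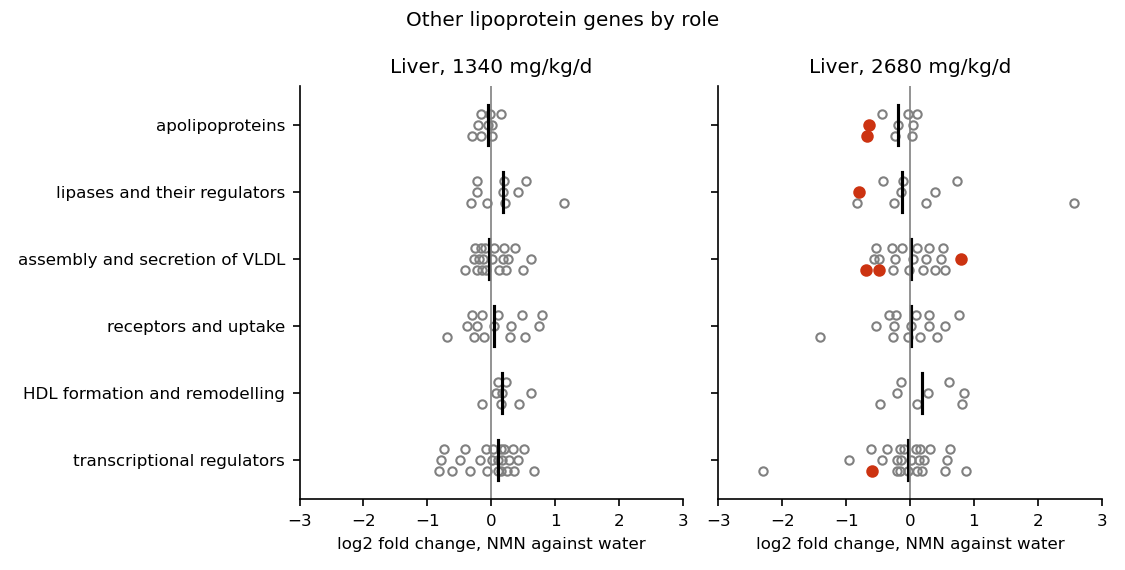
Log2 fold change of NMN against water in liver for each tested gene of 6 lists of other lipoprotein genes (open grey points; filled red where the adjusted p was under 0.05; black bar, median of the list). No point is filled at 1340 mg/kg/d, and 7 are at 2680 mg/kg/d, 6 of them left of 0.

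In kidney, whose NMN effects the choice of genes did not use, no change with NMN was detectable in the genes that could be tested. Lipc was tested in neither schedule and Apoa5 not at 2680 mg/kg/d. At 1340 mg/kg/d 8 of the 9 had enough counts and 0 passed (0.12% of all tested genes did), with adjusted p from 0.674 to 0.923 in edgeR. In the 2680 mg/kg/d schedule 7 of the 9 were tested and 0 passed (0.4% of all tested genes did), with adjusted p from 0.597 to 0.948. No gene of the 9 reached an unadjusted p under 0.05 in either, and DESeq2 called 0 as well. The median log2 fold changes were 0.20 and 0.06, against 0.00 over all tested genes in both.

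Lpl was the member with the highest kidney level. The water kidneys had 1636, 988, 835 and 1137 CPM and the NMN kidneys 1178, 667, 956 and 900 CPM at 1340 mg/kg/d. In the other schedule, at 2680 mg/kg/d, the water kidneys had 968, 735 and 774 CPM and the NMN kidneys 1370, 1169 and 731 CPM. The groups overlapped in both schedules, and the log2 fold changes were -0.31 (SE 0.23, adjusted p = 0.753) and 0.40 (SE 0.24, adjusted p = 0.597). The first was -0.08 without water replicate 1 and the second 0.20 without NMN replicate 1. The difference of the effect between schedules was 0.71 (SE 0.38, adjusted p = 0.999, edgeR interaction over 14 libraries), and 0 of the 7 genes with counts in the kidneys of both schedules passed, where 0.00625% of all tested genes did. Without the filter on low counts Lpl passed (0.73, adjusted p = 0.000478).

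Apoa1 in kidney had log2 fold changes of 0.30 (SE 0.19) and 0.44 (SE 0.39), Apob 0.29 (SE 0.26) and 0.03 (SE 0.11), and Mttp 0.09 (SE 0.15) and 0.10 (SE 0.10). Apoa4, at -0.09 (SE 0.18) and 0.06 (SE 0.19), did not show in kidney the lower level it had in NMN liver. Apoc3 had 0.11 (SE 0.17) and -0.15 (SE 0.22), and Angptl8, with only 9 to 77 counts per kidney, 0.52 (SE 0.59) and -0.24 (SE 0.42). With each library left out in turn, Angptl8 ran from -0.43 to 0.79 at 1340 and from -0.60 to 0.12 at 2680 mg/kg/d. Its highest level at 1340 mg/kg/d, 5.42 CPM, was in NMN replicate 3, the kidney of that schedule with the most of the adipocyte gene Adipoq (9.91 CPM). The kidneys at 2680 mg/kg/d, with Adipoq at 25.1 to 46.5 CPM, had Angptl8 at 0.80 to 3.02 CPM. Apoa5 had 0.39 (SE 0.35) at 1340 mg/kg/d, and Lipc had at most 11 counts in a kidney. Of the other lipoprotein genes 0 of 83 passed at 1340 and 0 of 80 at 2680 mg/kg/d in edgeR, where 0.12% and 0.4% of all tested genes did. Of these genes 8 and 19 had an unadjusted p under 0.05, and DESeq2 called 3 and 4. The shares of all tested genes at these cuts are not given here, so nothing is read from these counts. The smallest p values belonged to the bile acid receptor Nr1h4 at 1340 mg/kg/d (0.63, adjusted p = 0.151) and to Aadac at 2680 mg/kg/d (-0.43, adjusted p = 0.0698).

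The contrast between the organs was far larger than any effect of NMN. Lipc in both schedules and Apoa5 at 2680 mg/kg/d passed the filter on low counts through liver alone, so that they had to differ, and their levels are given as values. In the water mice the other 8 genes at 1340 and the other 7 at 2680 mg/kg/d passed between liver and kidney, with Lpl higher in kidney and the rest higher in liver, and with adjusted p of at most 0.000179 and 4.64e-05 in edgeR. Of all tested genes 66.9% and 70.5% passed, with 30.9% and 31% of all tested genes higher in liver and 36.1% and 39.5% higher in kidney. Over all tested genes the organ difference had a median of -0.10 and -0.17 on the log2 scale. For the genes that passed it lay between 3.95 and 10.90 at 1340 and between 4.13 and 14.09 at 2680 mg/kg/d, apart from Lpl (-4.08 and -3.66). Whether liver and kidney libraries of the same number came from 1 mouse is not stated in the labels.

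Levels between genes were compared as TPM, the count divided by the total exon length of the gene and scaled to the library. In the water livers at 1340 mg/kg/d the order was Apoa1 (22973 ± 4998 TPM), Apoc3 (4543 ± 464), Apoa5 (1404 ± 280), Apob (690 ± 184), Angptl8 (341 ± 277), Lipc (184 ± 26.1), Mttp (96.8 ± 7.93), Apoa4 (87.1 ± 25.1) and Lpl (7.63 ± 1.21; SD, n = 4). The ranges of Apob and Angptl8, of Angptl8 and Lipc, and of Mttp and Apoa4 overlapped, and the other neighbours did not. The order of the water livers at 2680 mg/kg/d was the same, with the same overlaps. Lipc stood at 242 ± 26.6 TPM there, and at 89.5 ± 7.17 TPM in the NMN livers (SD, n = 3 each), where it came after Mttp (104 ± 20.4 TPM), with overlapping ranges.

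In kidney the order was different. Lpl led in the water mice of both schedules (285 ± 73.3 TPM, n = 4, and 178 ± 27.1 TPM, n = 3), above every other gene of the 9 without overlap. In the order of the 1340 mg/kg/d schedule, Apoc3 (29.7 ± 5.89 and 15.9 ± 4.12 TPM), Apoa1 (27.0 ± 5.60 and 2.42 ± 1.14 TPM), Apob (26.4 ± 8.82 and 25.7 ± 3.71 TPM), Apoa4 (12.5 ± 2.31 and 9.64 ± 1.46 TPM) and Mttp (10.03 ± 1.47 and 9.13 ± 0.62 TPM) followed. At 1340 mg/kg/d the ranges of Apoc3, Apoa1 and Apob overlapped, as did those of Apoa4 and Mttp. The order at 2680 mg/kg/d was Apob, Apoc3, Apoa4 and Mttp, with Apoa1 below Angptl8 (6.34 ± 1.75 TPM). These orders depend on the length used. With the length of the principal coding transcript, Apoc3 (24.7 TPM) came before Apob (20.7 TPM) at 2680 mg/kg/d. Mttp then came before Apoa4 in both schedules, at 11.9 against 9.42 TPM at 1340 and 11.5 against 7.76 TPM at 2680 mg/kg/d. Mttp and Apob are both needed for lipoprotein assembly, and both were counted in every kidney library.

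**Figure D4:**
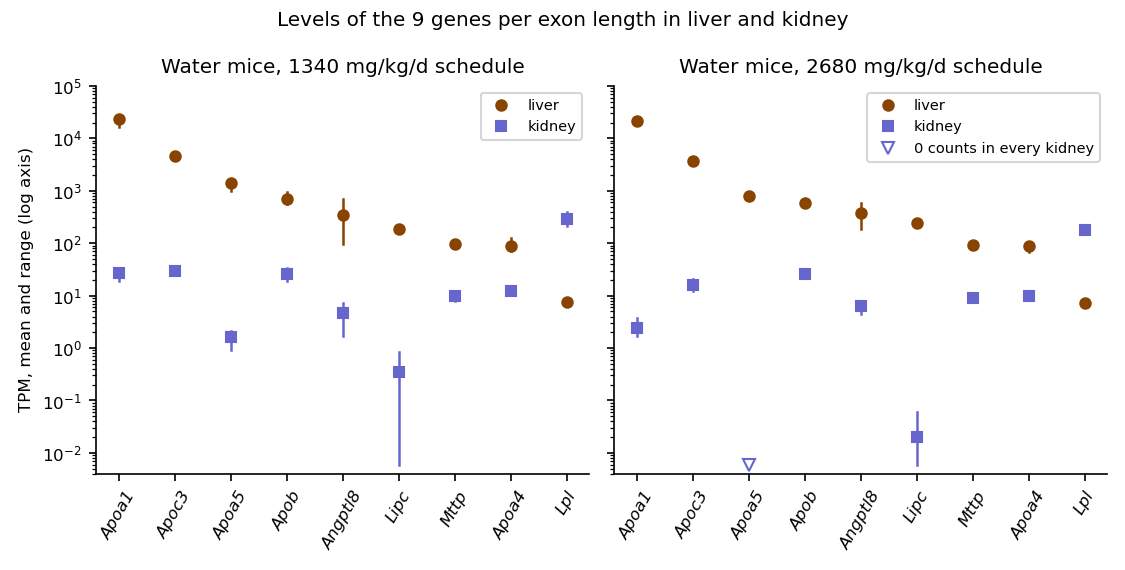
TPM (log axis) of the 9 genes in liver (brown circles) and kidney (blue squares) of water mice, as the group mean with a line from the lowest to the highest library, by schedule (n = 4 left, n = 3 right). A line that reaches the lower end includes a library at 0, and the open triangle marks Apoa5, with 0 counts in each kidney at 2680 mg/kg/d. Lpl is the only gene higher in kidney.

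Measured on counts scaled across both organs, the kidney level of Lpl was 1695% of the liver level at 1340 mg/kg/d and 1269% at 2680 mg/kg/d. Apoa4 stood at 6.44% and 5.67%, Mttp at 4.64% and 5.08%, Apob at 1.72% and 2.33%, Angptl8 at 0.616% and 0.834%, and Apoc3 at 0.291% and 0.228%. For these 6 genes the ratios of the schedules lay close together beside those of Apoa1 and Apoa5. Apoa1 was at 0.052% (95% exact interval 0.0484% to 0.0558%) at 1340 mg/kg/d and at 0.00562% (0.00437% to 0.00713%) at 2680 mg/kg/d, and its counts per kidney library were 144 to 269 and 17 to 52.

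Apoa5 had 14 to 37 counts in each of the 8 kidneys at 1340 mg/kg/d and 0 in each of the 6 at 2680 mg/kg/d. In the water mice this was 0.0518% of the liver level at 1340 mg/kg/d. The liver level at 2680 mg/kg/d was at least 29860-fold higher than that of the kidneys, with these set to 3 counts over the group (0.00335% of the liver level). Lipc had 6, 0, 1 and 11 counts in the water kidneys at 1340 mg/kg/d, together 0.0869% of the liver level (interval 0.0515% to 0.137%) and 0.0451% without replicate 4. At 2680 mg/kg/d the water kidneys had 0, 0 and 1 counts (0.00431%, interval 0.000109% to 0.0241%), all of it from replicate 3. The NMN kidneys had 0, 2, 2 and 0 Lipc counts in the former and 3, 4 and 4 in the latter schedule. NMN and water kidneys overlapped in the former, and in the latter each NMN kidney had more counts than each water kidney, which was not tested. In CPM the latter were 0.12 to 0.18 in NMN and 0 to 0.06 in water kidneys. Of all genes tested in that kidney comparison, 8.47% had NMN kidneys above water kidneys without overlap. The intervals take the counting as even between libraries. Intervals and floors cover counting error only.

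Of the 9 hepatocyte markers all but Trf and Cyp2e1 also stood lower against liver in the 2680 mg/kg/d kidneys. Alb in the water kidneys was at 0.0602% of its liver level at 1340 and 0.00481% at 2680 mg/kg/d, Hpx at 0.0515% and 0.00339%, Cps1 at 0.0485% and 0.0012%, Fgb at 0.067% and 0.0109%, Serpina1c at 0.0782% and 0.0233%, and Tat at 0.0564% and 0 counts. Of the other 3, Ttr was lower too, at 0.844% and 0.675%. Trf, at 0.106% and 0.164%, and Cyp2e1, at 11.1% and 12.5%, were higher. In liver, the kidney markers Kap, Slc34a1 and Umod had a mean of 0.121% to 0.179% of the kidney level in the 8 livers at 1340 mg/kg/d and at 0.00162% to 0.137% in the 6 at 2680 mg/kg/d. In the water kidneys Apoa1 stood near the percentage of Alb in both schedules and Apoa5 did so at 1340 mg/kg/d, while Apoa4, Mttp, Apob, Angptl8 and Apoc3 were above Alb in both. Lipc counts were too few to place it. The part of liver RNA in the kidney values was not tested.

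**Figure D5:**
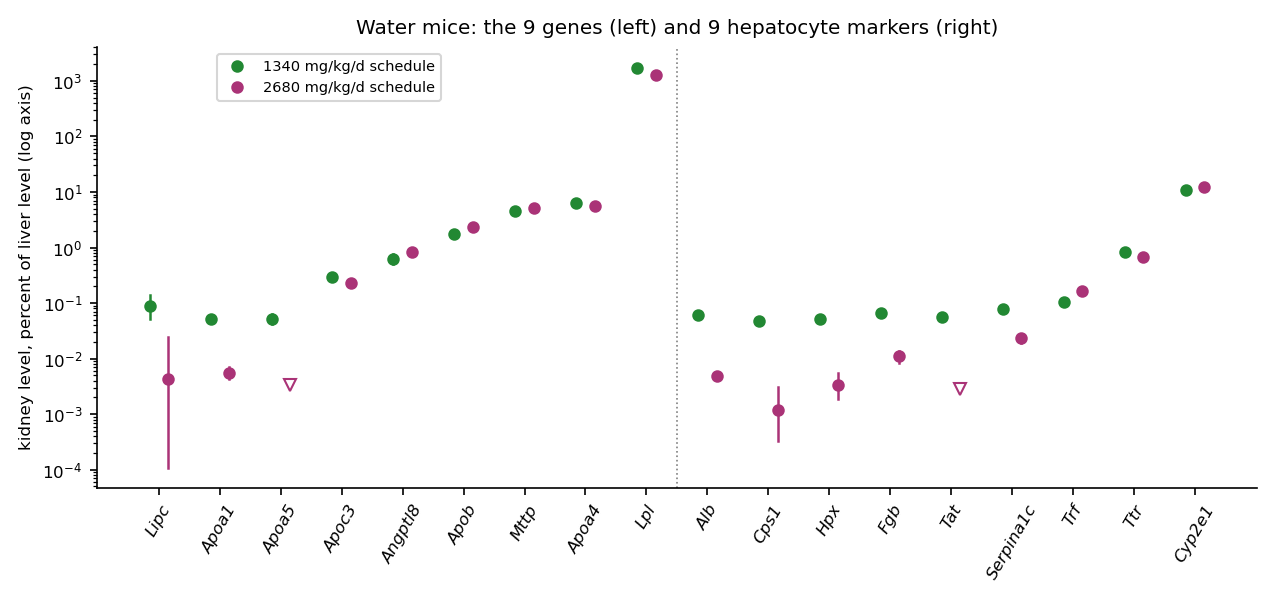
Kidney level as a percent of the liver level (log axis) in water mice for the 9 genes (left of the dotted line) and 9 hepatocyte markers (right), at 1340 (green) and 2680 mg/kg/d (purple), with 95% exact intervals of counting error; open triangles give the level of 3 counts over the group where no kidney count was found. Apoa1 and Apoa5 are lower in the 2680 mg/kg/d schedule, as are all of the 9 markers but Trf and Cyp2e1. Of the genes, 6 others lie close together, and the Lipc points rest on 18 counts and 1 count.

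Adipocyte genes, which accompany Lpl in fat tissue, differed between kidneys as well. The adipokine Adipoq was 0.28 to 9.91 CPM in the 8 kidneys at 1340 mg/kg/d and 25.1 to 46.5 CPM in the 6 at 2680 mg/kg/d, and the sum of 6 adipocyte markers, of which Cfd was the most abundant, was 4.68 to 71.6 CPM and 187 to 349 CPM. In the same kidneys Lpl was 667 to 1636 CPM in the first schedule and 731 to 1370 CPM in the second, each schedule being scaled on its own. None of the adipocyte markers tested (4 at 1340 and 6 at 2680 mg/kg/d) passed between NMN and water kidneys in edgeR. In liver the 6 adipocyte markers summed to 0.103 to 2.72 CPM, with Cidec or Cfd the most abundant and Lep at 0 in every library. Cidec had a log2 fold change of 1.52 (SE 0.75, adjusted p = 0.238, edgeR) in the 2680 mg/kg/d liver, and the part of adipocyte RNA in the Lpl values was not tested. The 6 enterocyte markers summed to 13.6 to 55.0 CPM in liver, with Sis and Cdx2 at 0 in every library. Fabp2, which liver also expresses, was the most abundant at 13.1 to 54.4 CPM, with log2 fold changes of -0.30 and -0.77 (adjusted p = 0.802 and 0.12, edgeR). The part of intestinal RNA in the Apoa4 values was not tested.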

How the data were processed

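RNA from 14 livers and 14 kidneys was sequenced. The deposited values are raw counts per gene, which the authors made with HTSeq-count (strict intersection, strand not used) from STAR alignments. Of all alignments 3.27% to 12.8% fell on no feature and 1.76% to 5.10% were ambiguous; these summary entries were left out. Of the 54446 gene identifiers, 53229 matched GENCODE M21 with their version, 1180 without it, and 37 did not match. Counts were tested with edgeR 4.0.16 (R 4.3.3; filterByExpr, TMM, robust quasi-likelihood fit, Benjamini-Hochberg adjustment over all genes tested, threshold 0.05), each comparison on its own libraries. The kidney difference between schedules was an interaction over 14 libraries. DESeq2 1.42.0, its size factors, no filter, a minimum of 10 counts in every library, a stricter threshold (adjusted p under 0.01 and 2-fold), a replicate block and leaving out each library were the alternatives. Each SE was the absolute log2 fold change over the root of its F statistic. The edgeR, DESeq2 and replicate block fits were tested on simulated data. The 9 genes and all gene lists were chosen with earlier results of these data known. All 9 genes were named, with up to 4 called genes per pathway list or the gene of smallest p, and the 5 genes most like Lipc. Intervals are exact binomial and, like the precision that the depth gives, cover counting error only. Promoters are those of RefSeq (GRCm38.p6). No library pair of a group agreed within sampling noise (chi-square per gene at least 6.67).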

Additional observations from a re-analysis of the deposited data

Results flagged for a closer look

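In 48 groups of 4 libraries, the gap of the highest or lowest library to its neighbour, divided by the range of the group, was compared with the critical value of Dixon's test for 4 values. Chance passes it in about 1 in 20 groups, and 4 passed. Apob, the structural protein of VLDL, was 5498 CPM in the liver of water replicate 3 at 1340 mg/kg/d, above 3632 to 3840 CPM in the other 3 (gap over range 0.888). Mttp was 306 CPM in the liver of NMN replicate 3 at 1340 mg/kg/d, above 243 to 247 CPM in the other 3 (0.937). The clock gene Dbp was 126 CPM in the liver of NMN replicate 4 at 1340 mg/kg/d, above 4.11 to 18.9 CPM in the other 3 (0.879). The adipocyte gene Adipoq was 9.91 CPM in the kidney of NMN replicate 3 at 1340 mg/kg/d, above 0.28 to 0.53 CPM in the other 3 (0.974). The Lpl level of that kidney, 956 CPM, lay within the range of the other NMN kidneys. Its Angptl8, 5.42 CPM, lay above the 0.83, 1.78 and 0.84 CPM of the other 3. Among the water kidneys of that schedule, replicate 4 had the highest adipocyte marker sum (65.9 CPM). Its Angptl8, 2.05 CPM, lay within the range of the other water kidneys. At 2680 mg/kg/d, where Adipoq was 25.1 to 46.5 CPM, the kidneys had Angptl8 at 0.80 to 3.02 CPM. The part of adipocyte RNA in the Angptl8 values was not tested.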

How the results depend on the processing

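The log2 fold change of Lipc in the 2680 mg/kg/d liver stayed between -1.69 and -1.54 under every alternative run. Counts of the 9 genes in the liver comparisons are a description, since the genes were chosen on these values. The organ differences of the 8 genes at 1340 and 7 at 2680 mg/kg/d with kidney counts enough for a test passed under every alternative run that kept them. With at least 10 counts required in every library, Angptl8 at 1340 mg/kg/d could not be tested. In the 1340 mg/kg/d liver, 1 of the 9 genes (Apoa4) passed in DESeq2, with no filter and with the replicate block, and 0 to 1 as each library was left out (1 without water replicate 1 or NMN replicate 4). In the 2680 mg/kg/d liver 2 passed with no filter (Lipc and Apoc3), and 1 to 2 with a library left out (Apoa4 without NMN replicate 1, Apoc3 without NMN replicate 2). In the kidney interaction 1 (Lpl, 0.73) passed with no filter, and 0 to 0 with a library left out.

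Of the other lipoprotein genes, 2 passed in the 1340 mg/kg/d liver in DESeq2 and with no filter (0 to 2 with a library left out). In the 2680 mg/kg/d liver 14 passed in DESeq2, 18 with no filter, 12 with the block and 0 at the stricter threshold (0 to 12 with a library left out). With the size factors of DESeq2, Apof, Apon, Lmf1, Mia3 and P4hb passed there, while Aadac and Cebpa lost their call. In kidney at 1340 mg/kg/d 3 passed in DESeq2 and with no filter (0 to 1), and at 2680 mg/kg/d 4 in DESeq2 and 7 with no filter (0 to 3). The shares of all tested genes under these settings are not given here, so nothing is read from these counts. The cause of the changes in calls was not tested.

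Log2 fold changes crossed 0 only with a library left out. In liver, Mttp ran from -0.10 to 0.02 at 1340 and from -0.16 to 0.10 at 2680 mg/kg/d, and Lpl from -0.02 to 1.10 at 2680 mg/kg/d. In kidney, Angptl8 ran from -0.43 to 0.79 at 1340 mg/kg/d, and at 2680 mg/kg/d Angptl8 from -0.60 to 0.12, Apoa4 from -0.034 to 0.24, Apob from -0.082 to 0.10 and Apoc3 from -0.37 to 0.070. In the interaction, Apoa1 ran from -0.063 to 0.55, Mttp from -0.12 to 0.095 and Angptl8 from -1.13 to 0.18.

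Over all genes, 2 passed in the 1340 mg/kg/d liver (0 to 74 over the alternatives), 883 in the 2680 mg/kg/d liver (135 to 1785), 18 and 61 in the kidneys (2 to 269 and 3 to 514) and 1 in the interaction (0 to 106). The correlation of deviations of same-numbered samples was 0.058 to 0.151 in the 2680 mg/kg/d liver, 0.06 to 0.22 and 0.063 to 0.158 between the organs, and below 0 for some pairs in the other comparisons. In none did every pair pass the minimum of 0.1, so the numbers are not taken as pairs. With the replicate block 1153 genes passed in the 2680 mg/kg/d liver, 16 in the 1340 mg/kg/d liver, 75 and 92 in the kidneys and 2 in the interaction. At 2680 mg/kg/d every library correlated best with its own number between NMN and water livers and between liver and kidney, a hint from the data and not from the design. Depth limits Lipc and Apoa5 in kidney, which were at or near 0 counts.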

Other observations

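In 4 livers Apob stood at one end of its group and Apoa1 and Apoc3 at the other. The pattern was picked after the values were seen, and in these livers Apoa5 was never at the end opposite to Apob and Apoa4 was in 1. Water replicate 3 at 1340 mg/kg/d had the highest Apob of its group (5498 CPM) with the lowest Apoa1 (8338 CPM) and Apoc3 (1602 CPM). NMN replicate 4 at 1340 mg/kg/d likewise had the highest Apob (5405 CPM) and the lowest Apoa1 (8206 CPM) and Apoc3 (1197 CPM), and water replicate 3 at 2680 mg/kg/d had the highest Apob (4227 CPM) and the lowest Apoa1 (10139 CPM) and Apoc3 (1468 CPM). NMN replicate 2 at 2680 mg/kg/d had the lowest Apob (3658 CPM) and the highest Apoa1 (11693 CPM) and Apoc3 (1493 CPM). The exons of Apob add up to 13934 bases, those of Apoa1 to 1236 and those of Apoc3 to 1014. The part of RNA quality or fragment length in this pattern was not tested.

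Angptl4, an inhibitor of lipoprotein lipase that fasting induces, was higher in every NMN library of the 2680 mg/kg/d schedule than in every water library, in both organs, as were 13.8% of all tested genes in liver and 8.47% in kidney, each counted on its own. It was 226 ± 115 against 38.3 ± 30.2 CPM in liver (log2 fold change 2.56, SE 0.76, adjusted p = 0.123 in edgeR, SD, n = 3 each). In kidney it was 112 ± 34.2 against 36.3 ± 26.3 CPM (1.64, SE 0.61, adjusted p = 0.458). Neither passed in edgeR, and the liver value passed with the replicate block (2.67, adjusted p = 0.00566) and in DESeq2 (adjusted p = 0.0148). The gene is named here after its values were seen.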
